A study of Mus musculus with 5 samples.

Results

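The genes described here form the G1 control module of the cell cycle: the D-type cyclins Ccnd1, Ccnd2 and Ccnd3, their kinases Cdk4 and Cdk6, the CDK inhibitors Cdkn1a, Cdkn1b, Cdkn2c and Cdkn2d, and Rb1, the protein the kinases phosphorylate. They were taken by gene symbol from the deposited table of read counts, each represented by its transcript row with the highest mean count. All 10 genes were found among the 20583 symbols of the table, and all 10 passed the filter on low counts.

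The cells were bone marrow-derived macrophages, which grow out of mouse bone marrow in culture with the growth factor M-CSF, here at 25 ng/ml for 7 days. Wild type cultures gave 3 libraries (numbered 1, 2 and 3) and NICcA cultures gave 2 (numbered 2 and 3), all from mice of C57BL/6 background aged 7 to 8 weeks. The genotype label NICcA is not expanded in the labels. The name has been used elsewhere for conditional activation of the Notch intracellular domain, and neither the driver of that activation nor any pooling of animals is stated in the labels. Whether the libraries within a genotype are from separate animals is not stated, so p-values measure only the spread among these 5 libraries and that spread may be technical.

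Cells that receive a growth factor signal make D-type cyclins, which bind and activate CDK4 or CDK6. The active kinases phosphorylate the Rb protein, which then releases E2F transcription factors, and these switch on the genes for entry into S phase. INK4 proteins (Cdkn2c, Cdkn2d) bind CDK4 and CDK6 themselves, while CIP/KIP proteins (Cdkn1a, Cdkn1b) bind cyclin-CDK complexes and are best known for blocking CDK2. In macrophages, M-CSF is the signal that induces D-type cyclins, and macrophages leave the cycle as they mature or are activated.

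Below, values are listed in a fixed order, wild type replicates 1, 2 and 3 first and then NICcA replicates 2 and 3, in CPM (counts scaled to library size) unless RPKM is named. Total counts were between 57442309 and 76562905 per library. Scores on the leading principal component of log2 CPM, which held 55.7% of the variance, were -1.06, -18.9 and -57.9 for wild type and 53.7 and 24.1 for NICcA, so the wild type libraries were themselves spread out along the axis that holds the genotypes apart. The Notch target Hes1 had counts of 1, 5 and 6 in the wild type libraries and of 185 and 125 in the NICcA libraries, and Notch1 itself was at 67.4 to 78.5 CPM against 84.2 and 87.6 CPM. For Hes1 the log2 fold change was 5.18 (SE 0.54), with an adjusted p of 0.13 in edgeR and of 1.06e-11 in DESeq2. Even this difference did not pass the main test, edgeR, at 0.05. Summed over 7 macrophage markers, all of them detected, the level was 13684 to 20139 CPM in wild type and 11748 and 12366 CPM in NICcA. Most of this sum was Lyz2, the lysozyme gene, and the other 6 markers summed to 2162, 2002 and 2621 CPM against 2445 and 1956 CPM, with overlapping groups (a split made after seeing the data). Like Lyz2, Cd68 (280, 354 and 455 CPM against 242 and 221 CPM) and Mertk (85.0, 104 and 139 CPM against 78.1 and 69.8 CPM) lay below wild type in both NICcA libraries. Csf1r, Emr1, Itgam and Cd14 overlapped between genotypes. Dendritic cell markers (6 of 6 in the table) summed to 29.2 to 90.1 CPM in wild type and to 195 and 98.0 CPM in the NICcA libraries. Most of that sum was Ccr7, at 33.5, 77.6 and 23.7 CPM against 166 and 69.4 CPM, with overlapping groups. The other 5 lay above wild type in both NICcA libraries, but Flt3, Xcr1 and Siglech were at no more than 0.762 CPM anywhere. Progenitor markers (4 of 4) summed to 26.5, 17.7 and 8.06 CPM against 39.5 and 35.4 CPM. Neutrophil markers (5 of 6 in the table) summed to 24.4 to 43.4 CPM against 54.8 and 57.3 CPM, and stromal markers (5 of 5) to 16.1 CPM in wild type replicate 1 against 1.27 to 2.68 CPM elsewhere. T cell and B cell markers (4 of 5 and 5 of 5 in the table) summed to at most 1.21 and 1.0 CPM in any library, with Pax5 at a count of 0 outside NICcA replicate 3. In bulk RNA, fewer cells of a type and less RNA per cell cannot be told apart, and the part of these other cells in the values below was not tested.

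RefSeq (GRCm38.p6) promoter windows were at hand for 7 of the 10 genes, and 3 are shown because they belong to the most abundant cyclin, kinase and inhibitor genes of the set and open at the start of the counted transcript, within 3 bases. Each window holds the 250 bases before the start, 5′ to 3′ on the gene's strand. Capitals mark the E-box CACGTG, bound by Myc with Max, and the Sp1 motif GGGCGG, both searched on both strands.
Cdk4 (chr10:127063285-127063534, plus strand): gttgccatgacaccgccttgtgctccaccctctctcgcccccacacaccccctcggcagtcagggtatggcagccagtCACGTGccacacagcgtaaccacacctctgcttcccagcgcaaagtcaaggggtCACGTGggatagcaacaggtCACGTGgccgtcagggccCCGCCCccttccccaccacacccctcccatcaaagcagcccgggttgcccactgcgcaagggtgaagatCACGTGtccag
Ccnd3 (chr17:47593217-47593466, plus strand): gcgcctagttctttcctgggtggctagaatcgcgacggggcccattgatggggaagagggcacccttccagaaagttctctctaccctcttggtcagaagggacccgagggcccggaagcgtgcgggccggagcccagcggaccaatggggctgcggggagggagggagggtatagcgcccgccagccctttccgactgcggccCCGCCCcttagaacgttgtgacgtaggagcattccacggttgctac
Cdkn1a (chr17:29093519-29093768, plus strand): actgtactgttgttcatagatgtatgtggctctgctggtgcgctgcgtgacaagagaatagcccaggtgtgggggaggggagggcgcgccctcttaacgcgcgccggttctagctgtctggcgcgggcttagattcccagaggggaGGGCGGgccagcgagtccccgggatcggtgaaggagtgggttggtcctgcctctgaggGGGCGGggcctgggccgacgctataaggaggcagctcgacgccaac
The Cdk4 window held 4 E-boxes and 1 Sp1 motif, where 6.02% of all 32851 promoter windows held an E-box and 32.7% an Sp1 motif. The Ccnd3 window held 1 Sp1 motif and the Cdkn1a window 2, and neither held an E-box. No window shown held the AP-1 motif TGANTCA, the cyclic AMP response element TGACGTCA, the RBPJ motif GTGGGAA or an E2F motif (TTTCGCGC, TTTGGCGC, TTTCCCGC or TTTGCCGC), which occurred in 6.75%, 1.55%, 5.42% and 1.86% of all windows. A match is a description of the letters and not a bound site. Between motifs, overlaps did not occur in these windows.

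Per length, measured as RPKM (read counts per length of transcript and library size, as the authors gave them), the genes spanned a wide range of levels. In wild type, Cdk4 was the most abundant at 36.7 ± 4.35 RPKM (mean ± SD, n = 3), followed by Ccnd3 at 21.6 ± 5.12 RPKM, Cdkn1a at 17.9 ± 7.29 RPKM and Cdkn1b at 13.2 ± 0.728 RPKM. Cdkn1a lay below Ccnd3 in every wild type library, and above Cdkn1b in wild type replicates 1 and 2 but below it in replicate 3. Cdkn2d followed at 9.09 ± 3.06 RPKM. Rb1, Cdk6 and Cdkn2c formed a group within each other's spread at 5.41 ± 0.877, 4.87 ± 0.530 and 4.72 ± 2.0 RPKM. The lowest were Ccnd1 at 1.67 ± 1.07 RPKM and Ccnd2 at 1.42 ± 1.07 RPKM, in that order in every wild type library.

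In NICcA the order of the upper ranks differed from wild type in replicate 2, while in replicate 3 ranks 1 to 5 were those of wild type replicates 1 and 2. Cdkn1a led in NICcA replicate 2 at 46.5 RPKM, above Ccnd3 at 41.9 and Cdk4 at 38.9 RPKM, while in NICcA replicate 3 Cdk4 stayed first at 41.6 RPKM with Ccnd3 at 36.0 and Cdkn1a at 31.0 RPKM. At the other end, Ccnd2 stood at rank 4 of the set in NICcA replicate 2 (18.6 RPKM) and last in NICcA replicate 3 (4.18 RPKM), and Ccnd1 lay above Cdkn2c, Cdk6 and Rb1 in both. The least abundant gene of NICcA replicate 2 was Rb1, at 3.55 RPKM.

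**Figure D1:**
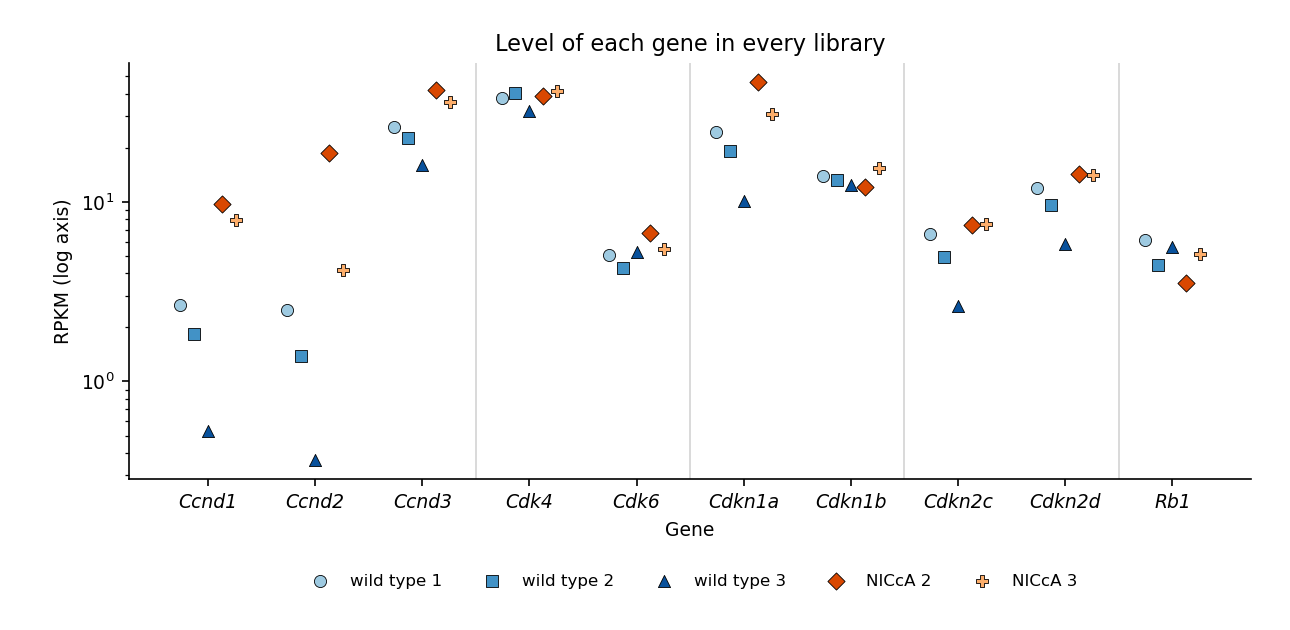
Level of each of the 10 genes in every library, in RPKM on a log axis, with wild type libraries in blue and NICcA libraries in orange; grey lines divide cyclins, kinases, CIP/KIP inhibitors, INK4 inhibitors and Rb1. Ccnd1 and Ccnd2 show the widest spread, from 0.531 and 0.366 RPKM in wild type replicate 3 to 9.77 and 18.6 RPKM in NICcA replicate 2, while Cdk4 stays between 31.9 and 41.6 RPKM.

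The question the design poses is whether the genotype moves these genes. None of the 10 passed edgeR's quasi-likelihood test with Benjamini-Hochberg adjustment over all 18267 transcript rows tested (0 higher and 0 lower), where the share called among all 13341 genes was 0.03% (4 genes higher and 0 lower). At an unadjusted p below 0.05, 4 members had higher values in NICcA (Ccnd1, Ccnd2, Ccnd3 and Cdkn1a) and 0 had lower values, against 7.68% of all genes higher and 6.83% lower. DESeq2, the other count test, called 1 member higher, Ccnd3, and 0 lower, against 2.05% and 1.9% of all genes. The median log2 fold change of the 10 was 0.55, beside 0.0028 over all genes tested. Both NICcA libraries lay above all wild type libraries for 6 members and below them for 0, where 18.3% of all genes lay above and 18.5% below.

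The D-type cyclins held the 3 smallest p-values of the set. Ccnd1, a D-type cyclin listed among Notch targets, though not necessarily the only one, measured 12.4, 8.98 and 2.60 CPM in wild type against 43.6 and 35.0 CPM in NICcA, from counts of 715, 658 and 171 against 2912 and 2524. The NICcA libraries were close to each other and lay well above the highest wild type library, while wild type replicate 3 lay far below the other wild type libraries. The log2 fold change was 2.30 (SE 0.57), a 4.92-fold difference that did not pass adjustment (edgeR adjusted p = 0.28; DESeq2 adjusted p = 0.064). Without wild type replicate 3 the log2 fold change was 1.88 with an SE of 0.21 (edgeR adjusted p = 0.14).

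Ccnd2, the cyclin known for its role in several blood lineages and in the ovary, measured 17.8, 10.3 and 2.72 CPM in wild type against 126 and 28.2 CPM in NICcA. The groups did not overlap, but NICcA replicate 2 stood far from every other library, 4.47 times above NICcA replicate 3. The log2 fold change was 2.91 (SE 0.86, edgeR adjusted p = 0.30), the largest of the set, and it was 1.45 (SE 0.86, edgeR adjusted p = 0.90) without NICcA replicate 2. That library also held the cytokine gene Il1b at 501 CPM and the interferon-stimulated gene Ifi44 at 28.8 CPM against 76.4 and 1.37 CPM in NICcA replicate 3 and at most 16.6 and 1.41 CPM in wild type, and the relation of these 2 genes, named after their values were seen, to the Ccnd2 level was not tested.

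Ccnd3, the most abundant D-type cyclin here, measured 63.4, 58.1 and 40.6 CPM in wild type against 97.4 and 83.4 CPM in NICcA. The NICcA libraries were again close to each other and above all wild type libraries. The log2 fold change was 0.74 (SE 0.20, edgeR adjusted p = 0.29), and DESeq2 called it (adjusted p = 0.037). Its 2 other transcript rows share most of their reads with this one and gave a log2 fold change of 0.71 each, with SEs of 0.20 and 0.21.

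The kinase genes overlapped between genotypes. Cdk4 measured 63.0, 69.9 and 55.3 CPM in wild type against 61.6 and 65.5 CPM in NICcA, so the NICcA values lay inside the wild type range. Its log2 fold change was 0.018 (SE 0.13, edgeR adjusted p = 0.96), the smallest in size and error of the set, and its sign was negative without wild type replicate 3 (-0.065) or NICcA replicate 3 (-0.025). Cdk6, the other partner of the D-type cyclins, was at 15.5, 13.6 and 16.7 CPM against 19.6 and 15.8 CPM, with overlapping groups and a log2 fold change of 0.21 (SE 0.15, edgeR adjusted p = 0.52), which was 0.14 without wild type replicate 2, 0.051 without NICcA replicate 2 and 0.36 without NICcA replicate 3. The miss of the threshold does not show that either gene is at the same level in both genotypes.

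Among the CIP/KIP inhibitors, Cdkn1a, which encodes p21, measured 57.7, 47.4 and 24.8 CPM in wild type against 104 and 69.2 CPM in NICcA. The groups did not overlap, with NICcA replicate 3 nearer to wild type replicate 1 than to NICcA replicate 2. The log2 fold change was 1.0 (SE 0.36, edgeR adjusted p = 0.33; DESeq2 adjusted p = 0.10), and 0.68 (SE 0.44) without NICcA replicate 2, the library high in Il1b. Cdkn1b, which encodes p27, did not follow: its wild type values of 41.2, 40.7 and 38.5 CPM were the tightest of the set, and its NICcA values of 34.1 and 43.4 CPM bracket them. Its log2 fold change was -0.051 (SE 0.13, edgeR adjusted p = 0.87), and the sign was positive without scaling factors (0.056), on RPKM values (0.050) and without NICcA replicate 2 (0.11).

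Both INK4 genes had the same pattern as each other. Cdkn2c, which encodes p18, measured 9.02, 6.99 and 3.75 CPM in wild type against 9.62 and 9.77 CPM in NICcA. Cdkn2d, which encodes p19, measured 18.6, 15.6 and 9.53 CPM and then 21.3 and 20.9 CPM. In both, the NICcA libraries nearly coincided just above wild type replicate 1, and the spread within wild type (2.41-fold and 1.96-fold from lowest to highest) was larger than the difference of the means (1.47-fold and 1.45-fold). The log2 fold changes were 0.56 (SE 0.35, edgeR adjusted p = 0.47) and 0.53 (SE 0.27, edgeR adjusted p = 0.40), with 0.28 (SE 0.18) and 0.30 (SE 0.14) without wild type replicate 3 and 0.86 (SE 0.31) and 0.75 (SE 0.25) without wild type replicate 1.

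Rb1, the substrate at the end of the module, had the largest difference in the downward direction. It measured 35.2, 26.5 and 33.4 CPM in wild type against 19.3 and 27.7 CPM in NICcA, where the second value lies within the wild type range. The log2 fold change was -0.43 (SE 0.20, edgeR adjusted p = 0.37), and it was -0.20 (SE 0.20) without NICcA replicate 2 and -0.71 (SE 0.21) without NICcA replicate 3.

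**Figure D2:**
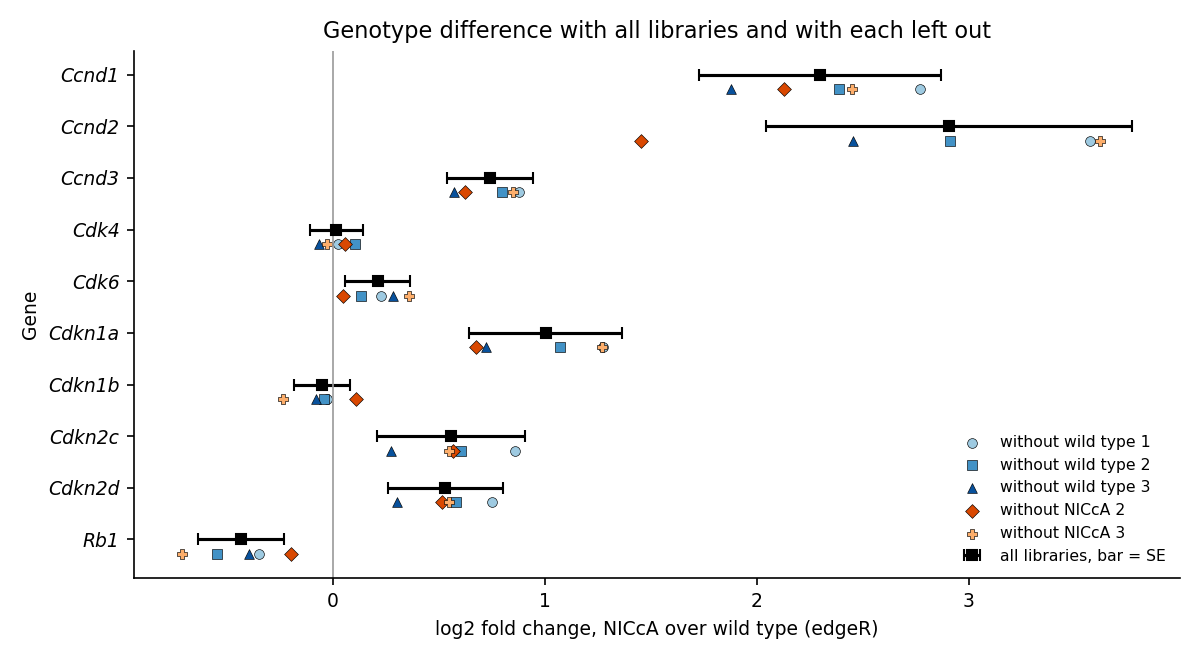
Log2 fold change of each gene, NICcA over wild type, from edgeR with all libraries (black squares, bars are SE) and with each library left out in turn (coloured points below). Ccnd1 stays between 1.88 and 2.77 in these fits, Ccnd2 drops to 1.45 without NICcA replicate 2, and Cdk4 and Cdkn1b lie near 0.

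Of the 10 members, 6 shared an order of libraries, a pattern chosen after seeing the data. They are the same 6 members whose NICcA libraries both lay above wild type, so this count is not separate from that one. For Ccnd1, Ccnd2, Ccnd3, Cdkn1a, Cdkn2c and Cdkn2d, wild type replicate 3 was lowest, then wild type replicate 2, then wild type replicate 1, and both NICcA libraries were highest. Among all 13341 genes, 7.82% had the order, and 0 members had the reverse, which 5.24% of all genes had. It is also the order of the wild type libraries on the first principal component. Markers of other cell types had it too, with 2 of 4 progenitor markers (Cd34 and Gata2) and 3 of 6 dendritic cell markers in this order and 3 of 7 macrophage markers (Lyz2, Cd68 and Mertk) in the reverse, and their part in the members' order was not tested. Cdk4, Cdk6, Cdkn1b and Rb1 did not have it.

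Within a library, RPKM values allow the genes to be set against each other. The 3 D-type cyclins together amounted to 31.1, 26.0 and 16.8 RPKM in wild type against 70.2 and 48.1 RPKM in NICcA. Ccnd3 made up 83.4%, 87.6% and 94.7% of that sum in wild type against 59.6% and 74.9% in NICcA. The share of Ccnd1 was 8.52%, 7.06% and 3.16% in wild type against 13.9% and 16.4% in NICcA, a difference in means of 8.9 percentage points with no overlap. For Ccnd2 the shares were 8.05%, 5.35% and 2.17% against 26.5% and 8.70%, so that NICcA replicate 3 exceeded wild type replicate 1 by little. The difference in means for Ccnd2, 12.4 percentage points, was 3.51 without NICcA replicate 2.

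The balance of D-type cyclin to inhibitor transcripts was close to uniform in wild type on the RPKM scale, but not in CPM. Summed RPKM of the 4 inhibitors was 56.9, 46.9 and 31.0 in wild type against 80.3 and 68.0 in NICcA. The ratio of summed D-type cyclins to summed inhibitors was 0.547, 0.555 and 0.543 in wild type, although both sums differed widely between these libraries, and 0.875 and 0.707 in NICcA. In CPM, which are not scaled to length, the ratio was 0.74, 0.70 and 0.60 against 1.58 and 1.02. Cyclins and kinases, by contrast, were in ratios of 0.723, 0.583 and 0.453 in wild type and of 1.54 and 1.02 in NICcA, with a kinase sum of 37.2 to 44.6 RPKM in wild type and of 45.7 and 47.0 RPKM in NICcA. Sums of RPKM were taken as deposited, without the scaling factors used for CPM. On log2(RPKM + 1) the median log2 fold change of all genes was 0.091, beside 0.0028 in the main fit. In CPM, Cdk4 and Cdk6 each overlapped between genotypes. Cdk4 exceeded Cdk6 by 6.06 to 9.46 times in wild type and by 5.78 and 7.60 times in NICcA. For the cyclin shares, the cyclin to inhibitor ratio and the cyclin to kinase ratio, the exact two-sided permutation test over libraries gave p = 0.2, the smallest value that 3 against 2 libraries allow, and for the Cdk4 to Cdk6 ratio it gave p = 0.6. With 10 such measures computed and this smallest p, none could pass adjustment.

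**Figure D3:**
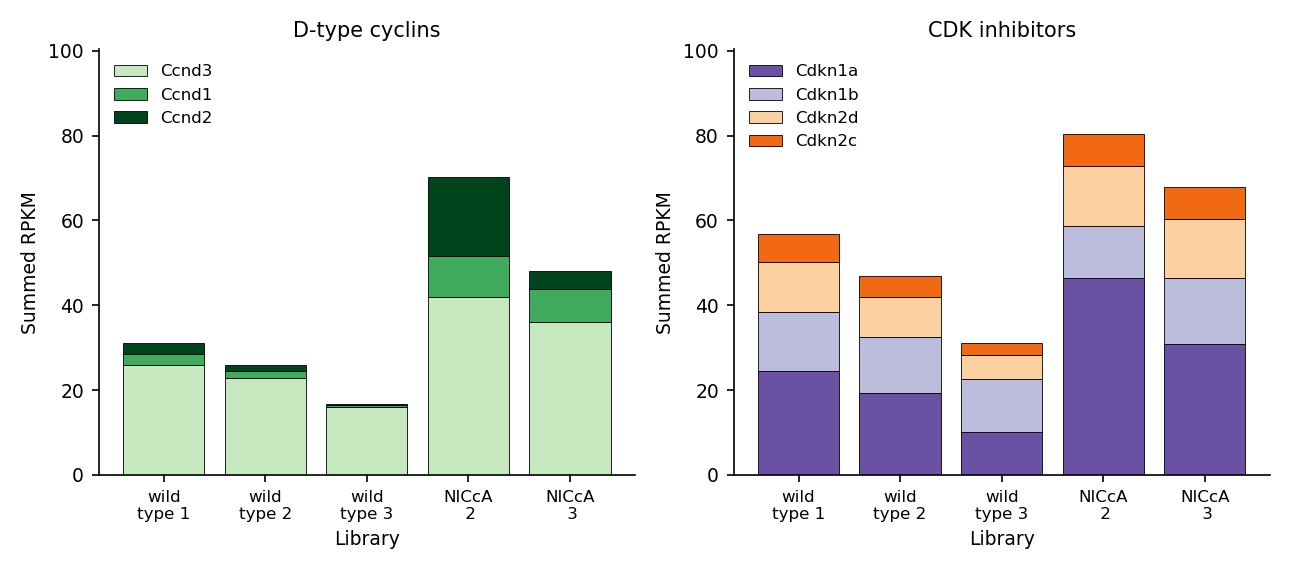
Summed RPKM of the D-type cyclins (left) and of the CDK inhibitors (right) in each library, stacked by gene. Ccnd3 takes 83.4% to 94.7% of the cyclin sum in wild type and 59.6% and 74.9% in NICcA, and Cdkn1a takes 32.5% to 43.0% of the inhibitor sum in wild type against 58.0% and 45.6% in NICcA.

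The rest of the pathway was read from 9 lists with 84 further genes, all of which were tested. edgeR called 0 of them, where it called 0.03% of all genes. At an unadjusted p below 0.05, 19 had higher and 3 lower values, against 7.68% and 6.83% of all genes. DESeq2 called 4 higher (Myc, Etv5, Mcm2 and Mcm6) and 1 lower (Fbxw7), against 2.05% and 1.9% of all genes. Of the 84 genes, 61 had a positive log2 fold change, where 50.5% of all genes tested did.

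Downstream of Rb, E2F and DP factors had positive log2 fold changes in 10 of 10 genes, where 50.5% of all genes did. Their median was 0.19. Those with the smallest p were Tfdp1, the DP partner of E2F proteins (log2 fold change 0.47, SE 0.14), the atypical repressors E2f7 (1.41, SE 0.49) and E2f8 (0.79, SE 0.32), and the activator E2f1 (0.31, SE 0.14), with edgeR adjusted p-values of 0.30, 0.32, 0.34 and 0.36. These 4 genes lay above wild type in both NICcA libraries, as did 18.3% of all genes, and the rest of the 10 overlapped. E2f2 was close to level, with a log2 fold change of 0.0013 (SE 0.27). Among E-type cyclins, Cdk2 and their control, 7 of 9 genes were positive with a median of 0.43. Ccne1, the cyclin that drives CDK2 at the start of S phase, measured 12.7, 9.35 and 5.10 CPM in the wild type libraries and 20.0 and 15.1 CPM in NICcA, for a log2 fold change of 0.95 (SE 0.37, edgeR adjusted p = 0.34). Fbxw7, the ubiquitin ligase subunit that marks cyclin E for destruction, went the other way at 28.9, 33.6 and 30.3 CPM against 21.0 and 22.6 CPM (log2 fold change -0.51, SE 0.12, edgeR adjusted p = 0.27; DESeq2 adjusted p = 0.013). The third CIP/KIP gene, Cdkn1c, was low at 1.28, 2.10 and 2.34 CPM against 1.0 and 1.08 CPM.

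Cdkn2a and Cdkn2b, listed with the INK4 genes, were low in their counted transcript rows. The Cdkn2a row measured 0.121, 0.123 and 0.182 CPM in wild type against 0.524 and 0.222 CPM in NICcA. That of Cdkn2b was at 0.382, 0.519 and 0.167 CPM against 1.99 and 0.430 CPM. Both were highest in NICcA replicate 2. Which product of the Cdkn2a locus its counted row encodes was not examined, so its value is not a measure of an INK4 protein's transcript alone. The Rb relatives Rbl1 and Rbl2 overlapped between genotypes, with log2 fold changes of 0.14 (SE 0.16) and -0.028 (SE 0.15). The CDK-activating kinase and its chaperone had a median of -0.065, the turnover factors of D-type cyclins one of 0.022, and the other cyclins and CDKs one of -0.051. Fbxo4, which targets cyclin D1 in that turnover list, was at 10.3, 11.4 and 12.4 CPM against 8.45 and 9.05 CPM (log2 fold change -0.38, SE 0.14, edgeR adjusted p = 0.33).

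Upstream inputs were split, with 6 of 14 positive and a median of -0.070. Csf1r, the M-CSF receptor, measured 843, 883 and 1146 CPM in the wild type libraries and 861 and 856 CPM in NICcA, for a log2 fold change of -0.16 (SE 0.17, edgeR adjusted p = 0.67). Etv5, an ETS factor induced by growth factor signalling, was at 4.06, 2.66 and 3.49 CPM against 16.4 and 8.23 CPM (log2 fold change 1.85, SE 0.33, edgeR adjusted p = 0.27; DESeq2 adjusted p = 0.00016). Myc, which can induce Ccnd2 and Cdk4, was at 8.19, 8.68 and 8.18 CPM against 13.5 and 11.8 CPM (log2 fold change 0.60, SE 0.13, edgeR adjusted p = 0.27; DESeq2 adjusted p = 0.00744). Rbpj, the DNA-binding partner of the Notch intracellular domain, had a log2 fold change of 0.80 (SE 0.29, edgeR adjusted p = 0.33).

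**Figure D4:**
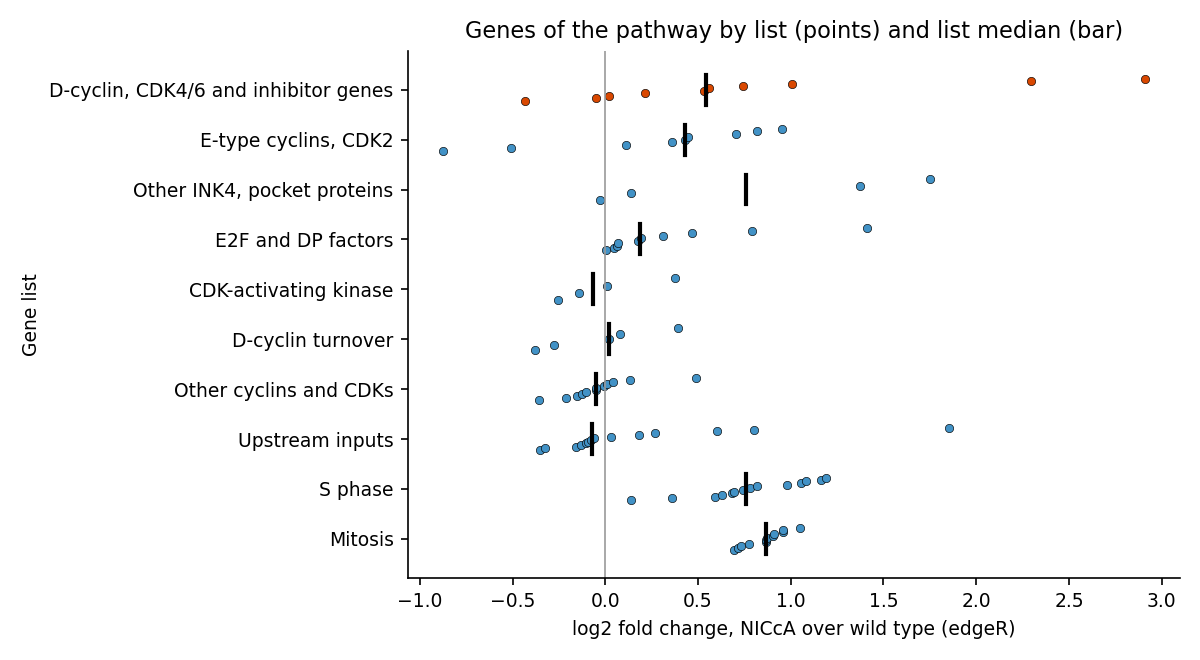
Log2 fold change (edgeR, NICcA over wild type) of the 10 genes (orange) and of the genes in 9 other lists (blue), with a black bar at each list's median. The medians of the S phase and mitosis lists lie at 0.76 and 0.87, those of the turnover, CDK-activating kinase and other cyclin lists near 0.

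Genes that mark cycling cells followed the same order of libraries. All 14 S-phase genes and all 12 mitosis genes had positive log2 fold changes, with medians of 0.76 and 0.87, where 50.5% of all genes were positive. The order of libraries described for the cyclins held for 12 of 14 and 10 of 12, against 7.82% of all genes. At an unadjusted edgeR p below 0.05, 8 S-phase genes but 0 mitosis genes had higher values, against 7.68% of all genes. The 12 mitosis genes summed to 678, 384 and 203 CPM in wild type against 742 and 722 CPM in NICcA, so wild type replicate 1 was close to the NICcA libraries. Mki67, the proliferation marker, was at 326, 190 and 105 CPM against 337 and 333 CPM (log2 fold change 0.70, SE 0.43, edgeR adjusted p = 0.46). The S-phase genes summed to 507, 395 and 312 CPM against 682 and 568 CPM. Among them the smallest p was that of the replicative helicase gene Mcm6 (log2 fold change 0.82, SE 0.23, edgeR adjusted p = 0.29; DESeq2 adjusted p = 0.042).

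Since the cycling genes differed widely among wild type libraries, each member was also expressed per 100 CPM of the summed mitosis genes of its own library, a measure chosen after seeing the data. On this measure Ccnd1 was at 1.83, 2.34 and 1.28 in wild type against 5.87 and 4.85 in NICcA. The wild type range was 4.78-fold in CPM, 1.83-fold per mitosis genes and 2.94-fold per S-phase genes, and the ratio of the NICcA mean to the wild type mean was 4.91, 2.95 and 3.39. Ccnd2 was at 2.63, 2.69 and 1.34 against 17.0 and 3.91, also without overlap. A single gene weighs heavily in each divisor. Mki67 gave 326, 190 and 105 CPM of the wild type mitosis sums of 678, 384 and 203 CPM. Pcna, which did not have the shared order of libraries, gave 139, 125 and 138 CPM of the S-phase sums of 507, 395 and 312 CPM.

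The other members did not lie above wild type on the mitosis measure. Ccnd3 was at 9.34, 15.1 and 20.0 against 13.1 and 11.6, Cdkn1a at 8.50, 12.3 and 12.2 against 14.1 and 9.59, and Cdkn2c at 1.33, 1.82 and 1.85 against 1.30 and 1.35, all overlapping, as were Cdkn2d at 2.75, 4.06 and 4.70 against 2.87 and 2.89 and Cdk6 at 2.28, 3.53 and 8.24 against 2.64 and 2.19. Cdk4 was at 9.29, 18.2 and 27.2 against 8.30 and 9.07, Cdkn1b at 6.08, 10.6 and 19.0 against 4.61 and 6.01, and Rb1 at 5.19, 6.90 and 16.4 against 2.60 and 3.83, with the NICcA libraries below. Per 100 CPM of the S-phase genes, Ccnd1 was at 2.45, 2.27 and 0.831 against 6.38 and 6.16, Ccnd2 at 3.51, 2.61 and 0.869 against 18.5 and 4.97, and Ccnd3 at 12.5, 14.7 and 13.0 against 14.3 and 14.7. Ccnd1 and Ccnd2 lay above the wild type range on both measures and Ccnd3 within it on both, while Cdkn1a lay above it per S-phase genes alone (at most 12 in wild type against 15.3 and 12.2). Below the wild type range per S-phase genes lay Cdk4 (12.4 to 17.7 against 9.02 and 11.5), Cdk6 (3.05 to 5.35 against 2.86 and 2.79), Cdkn1b (8.13 to 12.3 against 5.0 and 7.64) and Rb1 (6.71 to 10.7 against 2.83 and 4.87), while Cdkn2c and Cdkn2d overlapped. The S-phase divisor was 682 and 568 CPM in NICcA against at most 507 CPM in wild type. The mitosis divisor was 742 and 722 CPM in NICcA against at most 678 CPM in wild type. A larger divisor lowers the ratio of a gene whose CPM is level. Cdk4, Cdk6, Cdkn1b and Rb1 overlapped between genotypes in CPM, so their low ratios do not by themselves show lower transcript levels in NICcA. Of the 20 ratios computed, each without overlap gave p = 0.2 in the exact two-sided permutation test, the smallest value possible here.

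**Figure D5:**
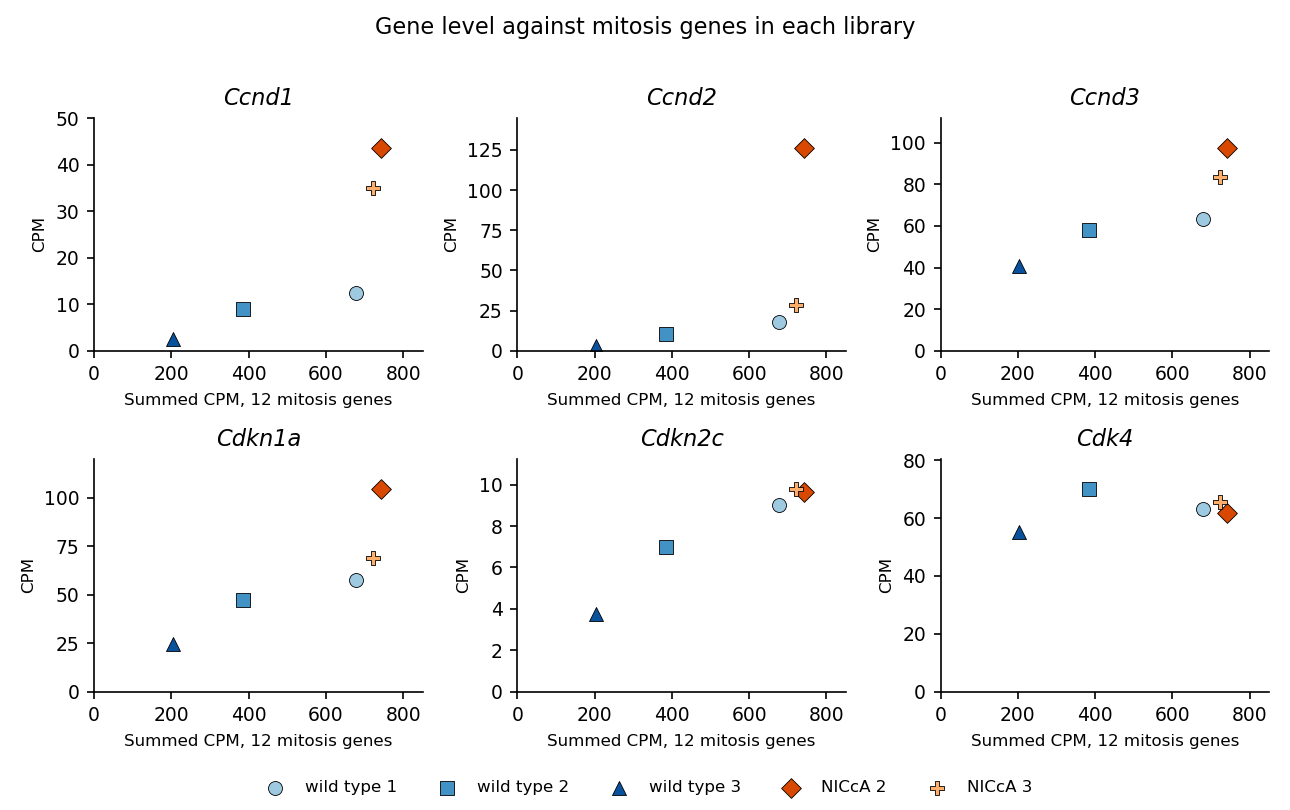
CPM of 6 genes against the summed CPM of the 12 mitosis genes, 1 point per library, axes starting at 0. Wild type replicate 1 (light blue circle) and the NICcA libraries lie close together on the horizontal axis (678, 742 and 722), where Ccnd1 is at 12.4 CPM in the former and at 43.6 and 35.0 CPM in the latter, while Cdkn2c is at 9.02 CPM against 9.62 and 9.77 CPM.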

How the data were processed

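The authors deposited raw read counts and RPKM (read counts scaled by transcript length and library size) for each RefSeq transcript, 1 to a row, in 5 mRNA libraries, per the file headers, and a second table of RPKM alone, in which the same rows of the members were read. Per the submitters' processing notes, Bowtie 0.12.2 and the build mm8 were used, without a stated role. How reads were counted and filtered, and whether strand was used, is not given in the sources used here. Isoform rows of a gene share reads. The test on 27457 rows of counts was edgeR's (4.0.16, R 4.3.3) glmQLFTest after filterByExpr, TMM scaling and glmQLFit, with genotype as the only term, Benjamini-Hochberg adjustment over the 18267 rows tested, threshold 0.05. Each gene is its row with the highest mean count (13341 genes); 46 of 47 symbols turned into dates were renamed by accession. SE is the absolute log2 fold change over the square root of F. The script was tested on simulated data. Permutation tests over libraries were exact. Alternatives used DESeq2 1.42.0, limma 3.58.1 (voom, and log2(RPKM + 1) or log2(RPKM + 0.1) for rows reaching an RPKM of 1 in 2 or more libraries), other scaling and filters, and each library left out. Figures used matplotlib 3.10.9. Every member is named. Of each other pathway list, up to 4 genes among those with the smallest p are named, not always in order of p. Cks1b of the E-type cyclin list was passed over although its p was smaller than those of Cdkn1c and Ccne1. Csf1r, Ccne1, Cdkn2b, Rbl1, Rbl2, Mki67, Pcna and E2f2, where outside that rule, and Il1b and Ifi44 were named after their values were seen. Marker genes of cell types are not under that rule. 1 further marker list is not reported here. The members and lists were chosen with earlier results of these data known. Promoter windows came from RefSeq (GRCm38.p6) by symbol, and no coordinates of the counted rows are given, since the builds differ.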

Additional observations from a re-analysis of the deposited data

How the results depend on the processing

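Of the 10 members, edgeR called 0 under every scaling, filter and left-out library, as did limma-voom and limma on RPKM. DESeq2 called 1 (Ccnd3) and, of the other lists, 5 genes. Without both libraries numbered 3, chosen after seeing the data, edgeR called 2 members, Ccnd1 (log2 fold change 2.03, adjusted p = 0.019) and Ccnd2 (3.16, adjusted p = 0.013), and 1 gene of the other lists; NICcA then has 1 library, assumed to vary like the wild type ones. Over 18 alternatives each, the log2 fold change ranged from 1.88 to 2.99 for Ccnd1, 1.45 to 3.62 for Ccnd2, 0.57 to 0.89 for Ccnd3 and 0.68 to 1.31 for Cdkn1a. The sign turned for Cdk4 without wild type replicate 3 (-0.065), NICcA replicate 3 (-0.025) or the pair numbered 3 (-0.11), with a range of -0.065 to 0.10 over fits without 1 library, and for Cdkn1b without scaling factors (0.056), on log2(RPKM + 1) (0.050), on log2(RPKM + 0.1) (0.053) and without NICcA replicate 2 (0.11), with a range of -0.23 to 0.11 over fits without 1 library. Without scaling factors the median of all genes shifted to 0.11.

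The 4 genes called among all genes became 11 without a filter, 527 with DESeq2, 2 with limma-voom and with limma on either RPKM scale, 8 with edgeR's legacy = FALSE and 161 without both libraries numbered 3 (both chosen after seeing the data), and 0 to 44 with 1 library left out (0 without wild type replicate 2 or NICcA replicate 2, 44 without NICcA replicate 3). With the replicate block, edgeR called 0 genes, 0 members and 0 genes of the other lists. The labels do not say that equal numbers share an animal or day, and over genes the deviations of libraries numbered 2 and 3 correlated at 0.206 and 0.168 between genotypes. The deviations were taken from each genotype's mean, so those of the 2 NICcA libraries are equal and opposite. The correlations are therefore not separate checks of a pairing.

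The difference in the Ccnd1 share was 4.53 percentage points when all rows of a symbol were summed, which counts shared reads of Ccnd3 3 times, and 7.36 to 10.1 with 1 library left out. That of Ccnd2 was 20.5 in CPM, 6.40 with summed rows and 3.51 to 21.3 with 1 library left out. The difference in the cyclin to inhibitor ratio, 0.242, was 0.620 in CPM, 0.12 with summed rows and 0.159 to 0.326 with 1 library left out. That of the Cdk4 to Cdk6 ratio, -0.978, ranged from -1.89 to -0.0693. With 2 NICcA libraries, the spread within that group is poorly known, and counting error is small beside it.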
